A study of Mus musculus with 11 samples.

Results

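The genes described here encode the cannabinoid receptor of neurons and the main enzymes that make and break down its ligands. The 8 members are Cnr1, Dagla, Daglb, Napepld, Mgll, Abhd6, Abhd12 and Faah. They were chosen by symbol, matched to Ensembl identifiers in GENCODE M21, and stand among 52550 genes of the count table. All 8 passed the filter on low counts, as did 15375 genes in all. The filter asked for a median of 10 or more counts and for 1 CPM or more in 3 libraries, where CPM is the count scaled to the size of the library.

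Polyadenylated RNA was sequenced in 11 libraries, made from frozen punches of the shell of the nucleus accumbens (part of the ventral striatum). The mice were 8 weeks old and of mixed background, CBA/C57BL6J/129svEmx. The series concerns reduced signalling through Rarb, a retinoic acid receptor, in mice with a mutation that causes Huntington disease. Its design text names R6/1, a transgenic line that expresses the first exon of mutant human huntingtin, and Rarb genotypes, but the labels of the libraries give an animal code and no genotype. The design text also says that a sample numbered 10 was left out for its quality, while a library coded 10, m44, is present, and whether both numberings are the same is not given. All libraries are unassigned, genotypes were not compared, and each gene is described library by library or by its lowest, median and highest value. Library totals ran from 24840981 to 48825783 counts, and p-values measure the spread between these libraries, whose genotypes are mixed in an unknown way.

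Endocannabinoids are lipids that neurons make on demand and that act backwards across the synapse. Diacylglycerol (DAG) lipases, encoded by Dagla and Daglb, form 2-arachidonoylglycerol in the postsynaptic cell after Gq-coupled receptors such as mGluR5 activate phospholipase C beta. The lipid binds the Gi/o-coupled receptor CB1, encoded by Cnr1, on nearby axon endings and lowers transmitter release, and it is then hydrolysed by MGLL, ABHD6 and ABHD12. The second ligand, anandamide, is released from its phospholipid precursor by NAPE-PLD and hydrolysed by FAAH. In the striatum CB1 is made by projection neurons and by some interneurons, and its mRNA is known to be lower in Huntington disease models.

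Because the series concerns a retinoic acid receptor and Cnr1 was the member that varied most, a promoter window of Cnr1 is shown first. Of the 8 members, 6 had promoter windows in the RefSeq table (GRCm38.p6), with 10 windows in all, and the 250 bases before each start were searched on both strands. The half-site AGGTCA, to which retinoic acid receptors and other nuclear receptors can bind, was found in 1 of these 10 windows, against 14% of all 32851 windows. The count of 1 in 10 lies near that share, and the other windows of Cnr1 held no half-site. The window with the half-site lies before the first RefSeq start of Cnr1, upstream of the GENCODE M21 gene start at 33924593. It spans chr4:33924014-33924263 on the plus strand and is given 5′ to 3′. Capitals mark the half-site, which is read on the minus strand here, with its leftmost base at position −8 from the start.
Cnr1 promoter: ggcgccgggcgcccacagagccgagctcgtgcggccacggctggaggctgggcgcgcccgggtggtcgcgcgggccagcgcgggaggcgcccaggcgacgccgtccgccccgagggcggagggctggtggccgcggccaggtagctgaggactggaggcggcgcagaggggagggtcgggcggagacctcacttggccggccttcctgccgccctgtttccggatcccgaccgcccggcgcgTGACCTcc
The window is rich in G and C (79.2%) and holds 36 CpG pairs. Direct repeats of the half-site in the same orientation, spaced by 5 bases or by 2 bases, were not found in the member windows, and each was present in 0.00913% of all windows. The letters CACGTG, an E-box, were searched as well. They were found in 2 of the 10 member windows, of Cnr1 and Mgll, against 6.02% of all windows. A match of these letters is a description of the sequence, and binding was not measured.

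Cnr1, on chromosome 4 (33924593 to 33948831, plus strand, mm10; ENSMUSG00000044288), was the member whose level differed most between libraries. It reached 236 CPM in m57, 215 in m73, 189 in m61, 161 in m89 and 138 in m47. It lay at 105 CPM in m44, 96.1 in m115, 88.3 in m83 and 85.7 in m101. The lowest values were 65.0 CPM in m74 and 61.4 in m49. The highest was thus 3.85 times the lowest, with no gap that split the libraries into separate clusters. The biological coefficient of variation (BCV, the relative spread between libraries beyond counting noise) was 0.459, above that of 91.5% of the genes tested, whose median was 0.201. Between 2485 and 9083 reads per library stood behind these values.

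The enzymes that make 2-arachidonoylglycerol differed less between libraries. Dagla (chromosome 19, 10245265 to 10304877, minus strand), the main DAG lipase of adult brain, lay between 59.9 CPM (m101) and 79.0 CPM (m89) in 10 libraries and stood at 105 CPM in m57, with a median of 73.3 CPM. Its BCV was 0.139, and 0.0768 without m57. Daglb (chromosome 5, 143464584 to 143505942, plus strand), the second DAG lipase, ranged from 31.2 CPM in m101 to 40.9 CPM in m44 with a median of 38.1 CPM. Of the genes tested only 5.80% had a BCV lower than its 0.0948. Exons of Daglb overlap those of Rac1 on the opposite strand over 2309 of 9567 bases (24.1%), and because the strand setting of the counting is not given, the level of Daglb is uncertain. Rac1, which encodes a small GTPase, had a median of 302 CPM, and the r of Daglb with Rac1, which was looked up for its overlap, was −0.12 (rho −0.37, permutation p = 0.719 and 0.260, adjusted over all genes 0.859 and 0.540) and −0.27 without m101 and m115.

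Napepld (chromosome 5, 21662901 to 21701396, minus strand), whose enzyme releases anandamide and related lipids, had the lowest CPM of the members. It was highest at 11.4 CPM in m73 and 10.6 CPM in m61, had a median of 8.60 CPM, and was lowest at 6.24 CPM in m101, 6.17 CPM in m83 and 4.64 CPM in m44. Its BCV of 0.252 exceeded that of 65.4% of genes (0.199 without m44), and counts ran from 154 to 484 per library.

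The 4 breakdown enzymes differed by 1.43 to 1.68 times between the lowest and the highest library. Mgll (chromosome 6, 88724412 to 88828360, plus strand), the presynaptic hydrolase of 2-arachidonoylglycerol, ranged from 152 CPM in m101 to 217 CPM in m83 (median 198 CPM, BCV 0.129). The 4 lowest libraries, m101, m73, m115 and m47, lay between 152 and 164 CPM, and the other libraries lay between 180.3 and 217 CPM. Of its exon bases 167 (3.29%) overlap an antisense gene, Gm26588. Abhd6 (chromosome 14, 8002902 to 8056763, plus strand), the postsynaptic hydrolase, had a median of 36.9 CPM and a BCV of 0.132, and was lowest in m73 (32.7 CPM) and highest in m61 and m57 (both 47.7 CPM). Abhd12 (chromosome 2, 150832493 to 150904741, minus strand), which also hydrolyses lysophosphatidylserine, had a median of 315 CPM and a BCV of 0.164, and was lowest in m115 (266 CPM) and highest in m61 (446 CPM). Faah (chromosome 4, 115967145 to 116017926, minus strand), the hydrolase of anandamide, ranged from 59.3 CPM in m47 to 84.7 CPM in m74 (median 77.2 CPM, BCV 0.108). Of the 7 enzymes, Napepld alone had a BCV above the median of all genes.

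**Figure D1:**
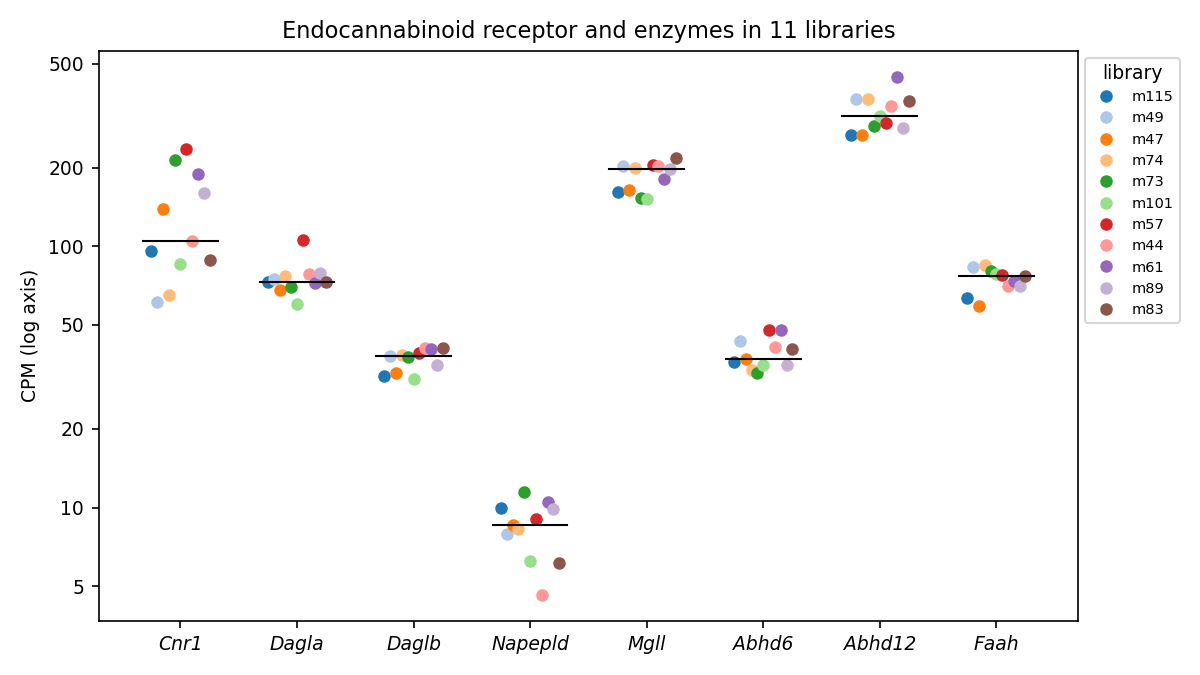
Level of each of the 8 members (x axis) in CPM on a log axis (y axis), with 1 coloured point for each of the 11 libraries and a black bar at the median. Cnr1 spans 61.4 to 236 CPM, while Mgll spans 152 to 217 CPM and Faah 59.3 to 84.7 CPM.

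**Figure D2:**
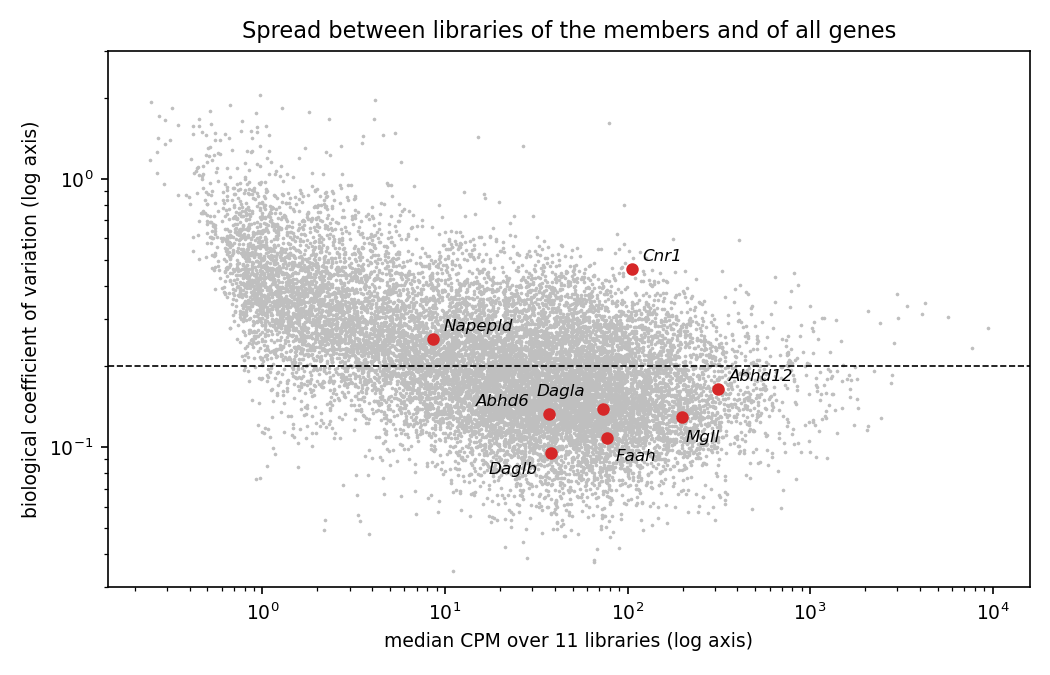
Biological coefficient of variation (y axis, log) against the median CPM (x axis, log) of the 15375 genes past the filter (grey) and of the 8 members (red), with the median of all genes, 0.201, as a dashed line. Cnr1 at 0.459 and Napepld at 0.252 lie above the line and the other 6 members below it.

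To compare levels between genes, CPM was divided by the length of the merged exons. On this scale Abhd12 had the highest median level at 111 CPM per kilobase, followed by Mgll (39.0), Cnr1 (16.3), Abhd6 (15.6), Dagla (12.8), Faah (9.86), Daglb (3.98) and Napepld (2.173). The order held in 11 of 11 libraries for Abhd12 over Mgll, Abhd6 over Dagla, Dagla over Faah, Faah over Daglb and Daglb over Napepld. Mgll exceeded Cnr1 in 10 libraries, the exception being m73. Cnr1 and Abhd6 could not be ordered, since Cnr1 was above Abhd6 in 5 of 11 libraries. Merged exons include sequence that only some transcripts use, which lowers the per-kilobase level of genes with long alternative ends.

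Ratios between members do not depend on library scaling. Dagla over Mgll, the main enzyme of synthesis over that of breakdown of 2-arachidonoylglycerol, was 0.353 per kilobase in the median library and ran from 0.297 in m83 to 0.455 in m57. Of the summed per-kilobase level of the 3 hydrolases of that lipid, Abhd12 took 63.5 to 73.9%, Mgll 16.6 to 25.2% and Abhd6 7.71 to 12.2%. These are shares of mRNA, and enzyme activity was not measured. The Abhd12 share was lowest in m57 and highest in m61. These libraries are the ends of the long minus short transcript measure described below, whose part in the ratios was not tested. Per kilobase, Dagla exceeded Daglb by 2.98 times in m83 to 4.49 times in m57. The ratio of receptor to enzyme moved more: Cnr1 over Dagla ran from 0.733 in m49 to 2.75 in m73, and Cnr1 over Mgll from 0.238 in m49 to 1.10 in m73. Faah over Napepld ran from 3.21 in m115 to 7.70 in m44.

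The tissue was checked by marker lists. Projection neuron markers, such as Ppp1r1b (438 to 1352 CPM), were abundant in every library, and their summed level ran from 3185 to 7284 CPM. Markers of cortical glutamatergic neurons were present as well, with all 9 past the filter and a sum lowest in m115 (899 CPM) and highest in m61 (2498 CPM), most of it Slc17a7 (636 to 2118 CPM). Summed markers ran from 1906 to 4773 CPM for myelin, 2173 to 3395 CPM for astrocytes, 258 to 440 CPM for microglia, 261 to 343 CPM for vessels, 318 to 658 CPM for GABAergic interneurons and 14.6 to 31.1 CPM for choroid plexus. Of the 5 choroid plexus markers 2 passed the filter, Clic6 (10.4 to 24.5 CPM) and Kl (3.32 to 6.86 CPM), while Ttr was at most 0.224 CPM. In bulk tissue, fewer cells of a type and less RNA per cell cannot be told apart.

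The members were then related to 4 measures of the libraries, each fitted for all 15375 genes with the quasi-likelihood test of edgeR. A score is the mean log2 deviation of a marker list from each gene's median, so 1 unit is a doubling of the markers. Along the projection neuron score none of the 8 members passed the adjusted p of 0.05, against 0.78% of all genes (120 genes, and 37 without m44). At an unadjusted p under 0.05 edgeR gave 0 members against 8.05% of all genes, and DESeq2 called 0 members against 336 genes, so that 0 of 8 lies near the background. Cnr1 had a slope of 0.57 log2 units per unit of score (SE 0.41, edgeR adjusted p = 0.897), Abhd6 of 0.29 (SE 0.14, adjusted p = 0.678), Dagla of 0.26 (SE 0.14, adjusted p = 0.745) and Mgll of 0.25 (SE 0.13, adjusted p = 0.736). Over the 11 libraries the r of Cnr1 with the score was 0.40 and rho 0.37 (100000 permutations, p = 0.211 and 0.261, adjusted over all genes 0.879 and 0.913), where 0.065% of all genes passed, and r was 0.35 without m44 and m57.

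This score was not independent of the numbered library codes, whose meaning the labels do not give. All 5 libraries of codes 9 to 14 (m57, m44, m61, m89 and m83) had scores from 0.36 to 0.65, and all 6 of codes 1 to 7 had scores from −0.51 to −0.12. Ppp1r1b, Drd1 and Drd2 did not overlap between these sets, with Ppp1r1b between 438 and 646 CPM in the lower codes and between 993 and 1352 CPM in the higher. Not every listed marker split this way. Meis2, which is part of the score, was lowest in m74 and highest in m49, both of low code. Sp9, listed with Drd2, was lowest in m74 and highest in m47. Sfxn1, listed with Drd1, was lowest in m57 (71.1 CPM) and highest in m101 (88.2 CPM). All 8 members did overlap, and the share of all genes that overlap was not computed. Cnr1 ran from 61.4 to 215 CPM in the lower codes and from 88.3 to 236 CPM in the higher, and Mgll from 152 to 203 CPM in the lower and from 180.3 to 217 CPM in the higher. Within the 6 libraries of low code the r of Cnr1 with the score was 0.07 (exact permutation p = 0.882), and none was computed for the 5 of high code. With the code set added to the fit the slope of Cnr1 was −0.41 (edgeR adjusted p = 0.921), so score and code set cannot be told apart here. The split by code was made after the values were seen.

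Along the cortical glutamatergic score none of the 8 members and none of all genes (0%) passed in edgeR. At an unadjusted p under 0.05 these counts were 0 members and 220 genes (1.43%), and DESeq2 called 1 gene, which was no member. The slope of Cnr1 was 0.01 (SE 1.27, edgeR adjusted p = 0.999). Along the myelin score no member passed either, against 0.104% of all genes, 0 had an unadjusted p under 0.05 in edgeR against 9.23% of all genes, and DESeq2 called 0 members against 183 genes. Mgll came nearest with a slope of 0.31 (SE 0.15, edgeR adjusted p = 0.555).

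The fourth measure compares long with short transcripts, by taking, in each library, how far the longest 10% of genes lie from their usual level in the median and subtracting the same for the shortest 10%, in log2 units. It ran from −0.63 in m61 to 0.43 in m57. A share of 32.9% of all genes passed along it, 18% upward and 14.9% downward. Of the 8 members 1 passed, Abhd12, which fell by 0.56 log2 units per unit (SE 0.11, edgeR adjusted p = 0.00149). Its r was −0.91 and rho −0.84 (permutation p = 0.00015 and 0.00219, adjusted 0.00283 and 0.0180, with 31.3% of all genes past the threshold), −0.91 without m61 and m57, and −0.90 within the 6 libraries of low code (exact permutation p = 0.0292). The count of 1 in 8 members lies near the share of all genes that passed downward. Cnr1 had a slope of 0.59 (SE 0.41, edgeR adjusted p = 0.298), which was 1.45 without m61 (adjusted p = 0.00815), so that its call depended on that library. Abhd6, the member with the shortest merged exons (2365 bases, against 2823 for Abhd12), had a slope of −0.10 (SE 0.16, edgeR adjusted p = 0.673), and Daglb, that with the longest (9567 bases), of −0.17 (SE 0.13, adjusted p = 0.322). The part of RNA quality or library making in this relation was not tested.

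**Figure D3:**
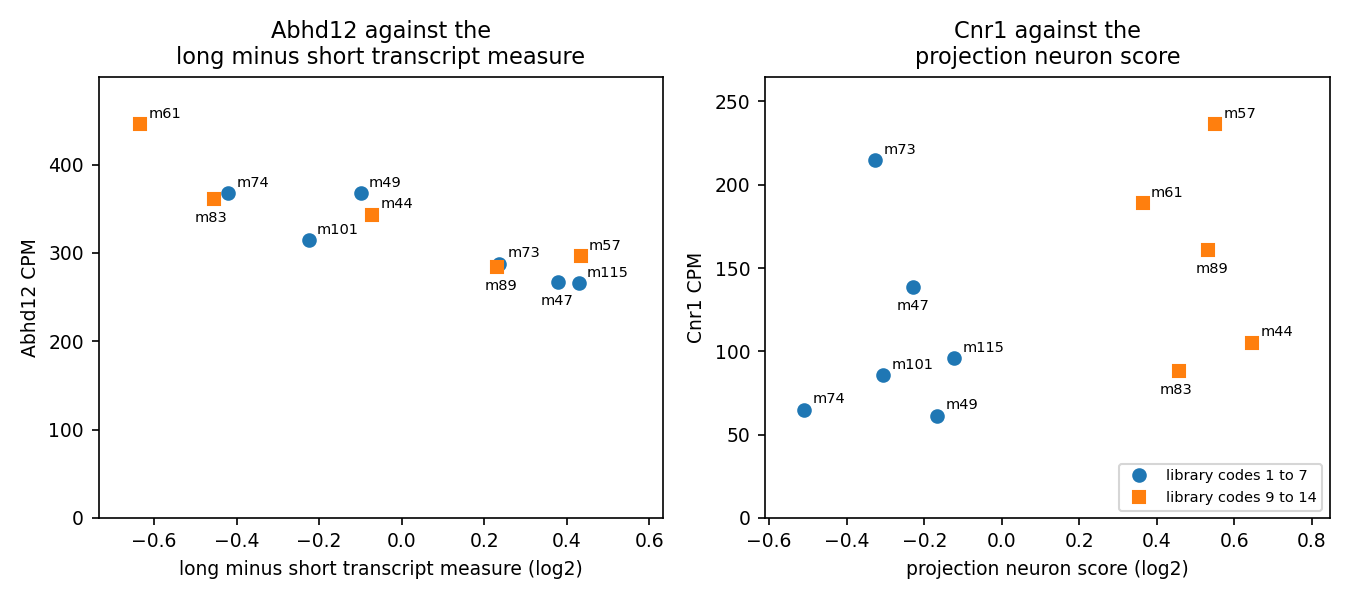
Left, Abhd12 in CPM against the long minus short transcript measure in log2 units, and right, Cnr1 in CPM against the projection neuron score in log2 units, with 1 point per library, circles for library codes 1 to 7 and squares for codes 9 to 14. Abhd12 is highest in m61 (446 CPM) at the left and lowest in m115 (266 CPM) near the right, and Cnr1 covers 61.4 to 215 CPM among the circles and 88.3 to 236 CPM among the squares.

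No relation of Cnr1 to another member passed when adjusted over all genes. Its r over the 11 libraries was 0.52 with Napepld, 0.38 with Dagla, 0.22 with Abhd6, 0.14 with Daglb, −0.21 with Mgll, −0.24 with Faah and −0.26 with Abhd12. Over 100000 permutations the unadjusted p of these 7 r lay between 0.0995 and 0.675. Their rho lay between −0.35 and 0.63, with the highest for Napepld (permutation p = 0.0446, adjusted 0.323). Adjusted over all 15374 genes set against Cnr1, none of the 7 passed by r (0.420 to 0.865), while 0.0911% of all genes did (14 genes, 0 without any of m49, m47, m74, m57 or m44, 4 without m73 or m89, 8 without m83 and 81 without m61). The r with Dagla rested on m57, since it was −0.0500 without that library, 0.51 without m73 and 0.05 without both. Among the enzymes the highest r was that of Daglb with Mgll, 0.72 (rho 0.80, permutation p = 0.0147 and 0.0044, adjusted over all genes set against Mgll 0.288 and 0.283). It was 0.79 without m101 and m73, the libraries farthest from the median of Mgll, and 0.50 without m101 and m115, those farthest from the median of Daglb. Daglb with Abhd12 followed at 0.67 (rho 0.64, permutation p = 0.0260 and 0.0403, adjusted over all genes set against Abhd12 0.0750 and 0.111). It was 0.55 without m61 and m115 and 0.72 without m101 and m115, and it passed without m101 alone (r 0.76, permutation adjusted p = 0.0372). Dagla with Mgll came next at 0.63 (rho 0.68, permutation p = 0.0182 and 0.0247, adjusted over all genes set against Mgll 0.301 and 0.366), with 0.43 without m101 and m73 and 0.70 without m57 and m101. These 3 pairs, of 28, were chosen for their r, and none passed by r, while 0.026% of all genes passed with Mgll and 29.3% with Abhd12.

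Rarb itself was lowest in m74 (49.8 CPM) and highest in m44 (101.2 CPM). Its r with the members ran from −0.58 for Faah to 0.49 for Cnr1, and none passed by permutation when adjusted over all genes (0% of genes passed; 0 of 15374, with 1648 at an unadjusted p under 0.05). Faah was the member farthest from 0, at r −0.58 and rho −0.75 (permutation p = 0.0601 and 0.0121, adjusted 0.479 and 0.458). It was −0.50 without m74 and m44 and −0.60 without m44 alone. Within the 6 libraries of low code the r of Faah was −0.87 (exact permutation p = 0.00694, unadjusted). The other members lay between −0.81 for Abhd12 and 0.37 for Cnr1 there, and the share of all genes was not counted. For Cnr1 r was 0.49 and rho 0.49 (permutation p = 0.129 for both, adjusted 0.567 and 0.637) with 0.48 without m74 and m44 and 0.61 without m44 alone. Along the projection neuron score Rarb had a slope of 0.53 (SE 0.15, edgeR p = 0.0038, adjusted 0.181), and the part of that score in these relations was not tested. Which libraries carry an altered Rarb allele is unknown, so these are relations between mRNA levels.

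**Figure D4:**
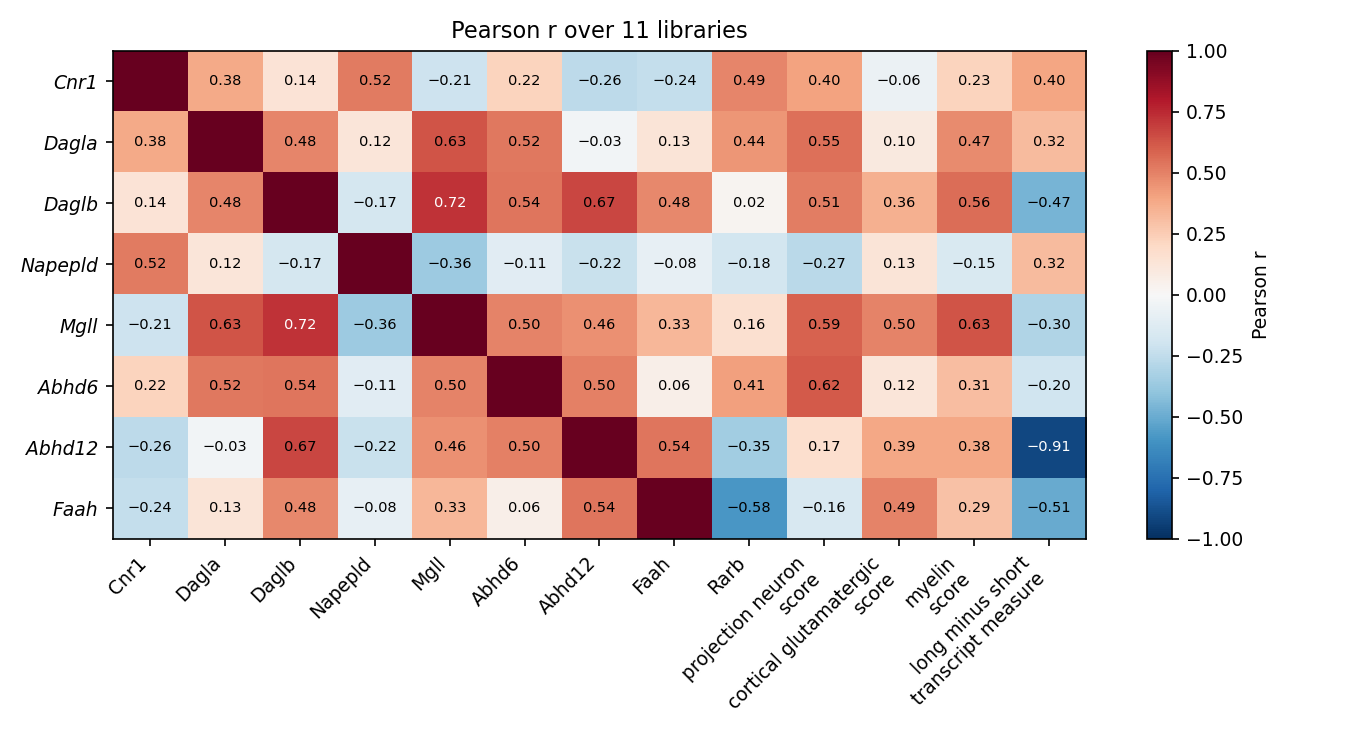
Pearson r over the 11 libraries of each member (rows) with each member, Rarb and the 4 measures (columns), coloured from blue (−1) to red (1). The darkest cell off the diagonal is Abhd12 with the long minus short transcript measure (−0.91), and the Cnr1 row stays between −0.26 and 0.52.

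The genes whose pattern was most like that of Cnr1 over the 11 libraries, by r on log2 values, were Zbtb18 (0.98), Noct (0.97), Gpr22 (0.96), Ndst4 (0.96) and Wasf1 (0.96). Zbtb18 encodes a zinc finger repressor of neuronal development and ranged from 69.2 to 139 CPM. Wasf1, which encodes the actin regulator WAVE1, ranged from 180 to 304 CPM, and Gpr22, an orphan receptor gene, from 19.4 to 41.5 CPM. Noct encodes nocturnin, a phosphatase with a daily rhythm, and Ndst4 a heparan sulfate sulfotransferase. Their rho with Cnr1 lay between 0.93 and 0.96, and r was 0.93 to 0.98 without m57 and m73. For Dagla the nearest genes were Pak6 (0.94) and Rbm20 (0.94), for Daglb the vessel genes Pdgfb (0.95) and Cldn5 (0.93), and for Napepld Pip5k1b (0.92) and Tchh (0.90). For Mgll they were Tmem132a (0.98) and Ubtf (0.96), for Abhd6 Mmp15 (0.93) and Kbtbd11 (0.93), for Faah Cndp2 (0.89) and Klc1 (0.89), and for Abhd12 Sh3bp1 (0.99) and Eif3h (0.98). Such maxima over all genes are high by selection and are given as a description.

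A list of 42 other genes of the pathway was set beside the members, of which 33 passed the filter. Along the projection neuron, cortical and myelin measures none of the 33 passed in edgeR, and DESeq2 called 0. At an unadjusted p under 0.05 there were 4, 0 and 2, against 8.05, 1.43 and 9.23% of all genes. Along the long minus short measure 7 were higher and 4 lower, near the 18% and 14.9% of all genes, with a median slope of 0.03 against 0.03 for all genes. Of the higher genes Grm5, the mGluR5 gene, had a slope of 1.08 (SE 0.24, edgeR adjusted p = 0.00406), and Gnaq, Plcb4 and Homer2 passed as well, while Plcb1, Plcb2, Plcb3, Plcg1, Chrm1, Gna11, Homer1, Homer3 and Camk2a did not. Also higher were Sgip1, whose protein binds CB1, and Gnai3, a Gi subunit gene. The 4 lower genes were Fabp3 and Fabp5, which encode fatty acid binding proteins, Gde1, an enzyme of anandamide synthesis, and Arrb2, a beta-arrestin gene. The slope of Fabp5 was −0.85 (SE 0.15, edgeR adjusted p = 0.000687).

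The 14 genes listed for Gq-coupled receptors, phospholipase C and the scaffolds and kinase of DAG lipase had an r with Cnr1 from −0.87 for Homer3 to 0.90 for Homer1. Homer1, a scaffold gene that links mGluR5 to DAG lipase, was lowest in m74 (51.1 CPM) and highest in m57 (151 CPM), with m49 at 57.2 CPM and m89 at 144 CPM. Grm5 was also lowest in m74 (102 CPM) and highest in m57 (338 CPM), with a BCV of 0.372, and Plcb1, the phospholipase C gene of highest CPM, had 125 and 304 CPM there. Their r with Cnr1 was 0.90 for Homer1, 0.84 for Grm5 and 0.89 for Plcb1, with 0.90 for Homer2. For these 4 the unadjusted permutation p ran from 0.00012 to 0.00177, and rho from 0.86 to 0.96. Of the 15374 genes set against Cnr1, 2362 had an unadjusted permutation p under 0.05 by r. Homer3, of the same scaffold family, went the other way (r −0.87, rho −0.84, permutation p = 0.00094 and 0.0026, adjusted 0.102 and 0.140, and −0.75 without m57 and m73). Plcb2, Plcb3, Plcb4, Plcg1, Chrm1, Gnaq, Gna11 and Camk2a lay between −0.42 and 0.35. Adjusted over all genes Homer1, Homer2, Plcb1 and Grm5 did not pass by r (0.0615 to 0.119), and by rho Homer1 passed (permutation adjusted p = 0.0280). By r 0.0911% of all genes passed, and the share that passed by rho was not counted. Without m61 Homer2 (permutation adjusted p = 0.0391) and Grm5 (0.0465) passed by r. Without m57 and m73 the r of these 4 was 0.73 to 0.93, and within the 6 libraries of low code 0.83 to 0.93. Grm5 and Homer2 were also among the genes called along the long minus short measure, whose part here was not tested. These 4 genes were named after their r was seen, and the difference from the r of Dagla was not tested.

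**Figure D5:**
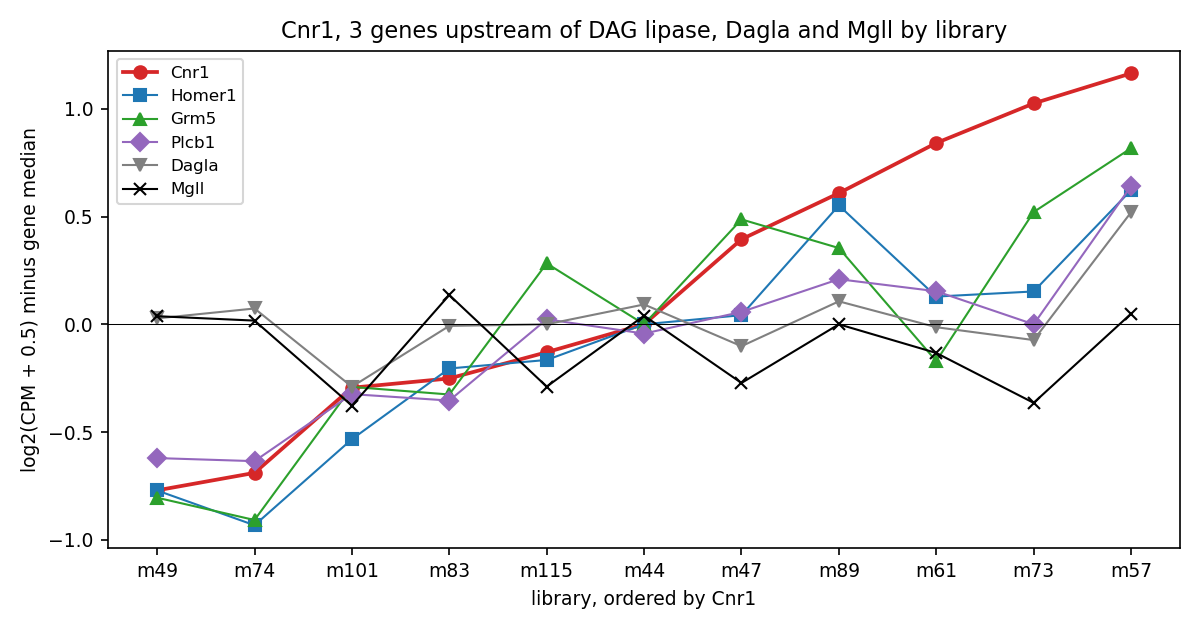
Log2(CPM + 0.5) minus the gene's median (y axis) for Cnr1, Homer1, Grm5, Plcb1, Dagla and Mgll in the 11 libraries (x axis, ordered by Cnr1). Homer1 and Plcb1 are lowest in m49 and m74 and highest in m57 as Cnr1 is, while Mgll shows no such course (r −0.21).

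The other genes of the list differed widely in level. Of other receptors, Cnr2, the cannabinoid receptor of immune cells, was at 0.121 to 0.975 CPM, Gpr55 at 0.0689 to 0.593 CPM, and Gpr119 had no count in any library, where 3 counts, used as the floor, correspond to 0.0619 to 0.133 CPM. Pparg alone of the 7 receptors passed the filter (median 0.773 CPM). Among other enzymes for N-acylethanolamines Gde1 had the highest CPM (155 to 289 CPM), Gdpd1 the steadiest (BCV 0.0821) and Ptpn22, whose phosphatase belongs to an alternative route to anandamide, the most variable (0.443 to 1.69 CPM). Cnrip1, whose protein binds CB1, was steady at 64.9 to 83.8 CPM (BCV 0.0826), and so was Gnao1, the Go subunit gene, at 743 to 967 CPM (BCV 0.0759). Camk2a, which encodes a kinase that acts on DAG lipase alpha, ranged from 1129.7 to 2260.3 CPM and Gna11 from 128 to 179 CPM. Plcg1 was at 62.3 CPM in m61 and between 108 and 119 CPM in every other library. Plcb2 ranged from 3.59 to 8.02 CPM and Homer3 from 5.60 to 9.22 CPM. Ptgs2, the cyclooxygenase gene that can oxidise both ligands, was low and variable (0.619 to 3.84 CPM, BCV 0.451). Fabp7, the astrocytic fatty acid binding protein gene, ranged from 22.9 to 46.3 CPM.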

How the data were processed

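The values deposited by the authors are unnormalized read counts for each gene in each library. The submitters' processing notes name HTSeq 0.6.1, TopHat2 2.0.14, Bowtie2 2.1.0, bcl2fastq 2.17.1.14 and the build mm10. Annotation release and strand setting were not given in the sources used here. Libraries were made with a stranded mRNA kit from 200 ng of RNA with 12 PCR cycles, from sections of 300 µm, per the labels' protocols. Of 52550 identifiers 52403 matched GENCODE M21, and the 147 others held 0.0112 to 0.0214% of counts. CPM used TMM-scaled totals (factors 0.908 to 1.06) from edgeR 4.0.16 (R 4.3.3), and BCV from an intercept-only fit without sharing between genes. Correlations used log2(CPM + 0.5) in Python 3.11.15 with numpy 2.4.6, two-sided with 100000 permutations, so that the smallest p is 1e-05. Each of 9 reference genes and 4 measures was set against all genes past the filter, with Benjamini-Hochberg adjustment over all of them. Measures leave out the 8 members. DESeq2 1.42.0 was an alternative. Slopes and correlations were tested on simulated data. No labelled batch was found. The members and lists were chosen with earlier results of these data known. Named genes are the members, Rarb, the 5 genes most like Cnr1 and the 2 most like each other member (median of at least 5 CPM), 6 marker genes, and the most abundant, most and least variable gene of each pathway role. Rac1, Cnr2, Gpr55, Gpr119, Meis2, Sp9, Sfxn1, Clic6, Kl, Ttr and the pathway genes named for a slope or an r lie outside that rule. The marker gene Gpr52 was not used here. A pathway gene is counted but not reported here by name.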

Additional observations from a re-analysis of the deposited data

How the results depend on the processing

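No paired analysis was possible because the labels give no groups and no shared replicate numbers. Alternatives were unscaled library totals, DESeq2 size factors, the DESeq2 Wald test, no filter, other pseudocounts, the transcript length measure added to the fit, and leaving out each library. The library code set and, for the length measure, the projection neuron score were added after seeing the data. Of 544 alternative slopes of members 517 kept direction and call, 26 reversed and 1 passed anew, and of 400 alternative r values 386 kept both, 10 reversed and 4 passed anew. The cause of the changes was not tested. All 104 alternative medians moved by less than the spread between libraries.

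The 120 genes called along the projection neuron score became 76 with unscaled totals, 336 with DESeq2, 0 with the code set and 399 with the length measure added. The 0 called along the cortical score became 1 with DESeq2, and the 16 along the myelin score became 7, 183, 0 and 8 in the order used for the first score. The 14 genes called with Cnr1 became 0 with unscaled totals and 7 without a filter, and the 4 called with Mgll became 0 under both. Leaving out 1 library gave 37 (without m44) to 127 genes along the projection neuron score, 0 to 1 along the cortical, 0 (without m47) to 23 along the myelin and 4060 to 5234 along the length measure. It gave 0 (without any of m49, m47, m74, m57 or m44) to 81 (without m61) genes with Cnr1, 0 to 0 with Mgll and 3263 to 4542 with Abhd12. Dagla's BCV was 0.0768 without m57.

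Slopes that reversed with unscaled totals were −0.018 for Abhd12 along the projection neuron score and, along the cortical score, −0.997 for Cnr1, −0.0659 for Dagla and −0.20 for Abhd6. The r of Daglb was then −0.16 with Cnr1 and −0.15 with Rarb. With DESeq2 the cortical slope of Cnr1 was −0.00126. With the code set, slopes along the projection neuron score were −0.41 for Cnr1, −0.33 for Daglb, −0.0811 for Mgll and −0.99 for Abhd12. The cortical slopes were −0.63 for Cnr1 and −0.0295 for Dagla, and the myelin slopes −0.797 for Cnr1, 0.000941 for Napepld and −0.29 for Abhd6.

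With 1 library left out, slopes that changed sign ran from −0.32 to 0.0516 (Napepld, projection), −1.08 to 0.88 (Cnr1, cortical), −0.28 to 1.16 (Napepld, cortical), −0.25 to 0.0450 (Napepld, myelin), −0.0162 to 0.23 (Faah, myelin), −0.00991 to 0.25 (Dagla, length) and −0.25 to 0.0262 (Abhd6, length). The r that changed sign ran from −0.0500 to 0.51 for Dagla with Cnr1, −0.0361 to 0.48 for Abhd6 with Cnr1, −0.45 to 0.0205 for Rac1 with Daglb, −0.19 to 0.14 for Daglb with Rarb and −0.28 to 0.26 for Napepld with Rarb. Napepld had the lowest counts of the members, down to 154 in m44, and the part of depth in these changes was not tested.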
